A study of Mus musculus with 9 samples.

Results

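The 10 genes described here encode the core of the mTOR complexes (Mtor, Rptor, Rictor, Mlst8 and Prr5), the sestrins (Sesn1, Sesn2 and Sesn3), the upstream inhibitor Ddit4 and the translation repressor Eif4ebp1. They were chosen by symbol from the 41388 genes of the murine expression table, and all 10 passed the minimum level for testing, as did 11599 genes in all. RNA-Seq was carried out on Tc17 cells, CD8+ T cells that produce IL-17, obtained in culture from sorted naive CD62L+CD44- CD8+ T cells of lymph nodes and spleen of C57BL/6 mice. All cultures ran for 2 days on plate-bound anti-CD3 (5 µg/ml) with soluble anti-CD28 (0.5 µg/ml), IL-2 (50 U/ml), TGF-β (0.5 ng/ml), IL-6 (30 ng/ml) and anti-IFN-γ (5 µg/ml). They held 0.2% DMSO alone (Ctrl), DMSO with 20 µM DMF (DMF), or both with 50 µM reduced glutathione added (DMF + GSH). DMF, dimethyl fumarate, is an electrophilic ester that reacts with glutathione (GSH), the main thiol antioxidant of the cell. Each group had 3 libraries, of which replicate 1 was prepared in batch 1 and replicates 2 and 3 in batch 2. The labels do not say whether replicates came from separate mice, so that p-values measure the spread between these samples only.

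mTOR is a kinase that works in a pair of complexes. mTORC1, built on the scaffold raptor (Rptor), senses amino acids and growth signals and drives translation, and mTORC2, built on rictor (Rictor), phosphorylates AKT. Both hold the subunit encoded by Mlst8. Sestrins bind GATOR2 and thereby restrain mTORC1, and Sesn2 is known as a leucine sensor and as a gene induced by several kinds of stress. In T cells, mTORC1 and mTORC2 activity is known to shape the choice between effector and memory fates. The table measures transcripts only and holds no measure of kinase activity.

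The sestrin promoters are shown because, with DMF, Sesn2 transcripts moved in the opposite direction to those of Sesn1 and Sesn3. Each stretch is given 5′ to 3′ on the strand of its gene, from RefSeq windows of GRCm38.p6 that end at the base before the RefSeq start, without bases that GENCODE places in an exon. Sesn1 (chr10:41887189-41887438, plus strand, the window of its second RefSeq start), Sesn2 (chr4:132510502-132510706, minus strand) and Sesn3 (chr9:14276051-14276300, plus strand) read as follows.
Sesn1: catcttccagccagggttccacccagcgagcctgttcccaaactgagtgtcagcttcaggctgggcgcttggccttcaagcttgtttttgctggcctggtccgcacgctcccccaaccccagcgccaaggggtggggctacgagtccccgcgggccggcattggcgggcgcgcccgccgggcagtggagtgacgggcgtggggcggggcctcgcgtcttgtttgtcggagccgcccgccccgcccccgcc
Sesn2: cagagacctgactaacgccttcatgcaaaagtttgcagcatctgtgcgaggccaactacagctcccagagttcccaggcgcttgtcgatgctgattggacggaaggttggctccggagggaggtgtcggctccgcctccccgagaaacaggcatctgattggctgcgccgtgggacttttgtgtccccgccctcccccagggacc
Sesn3: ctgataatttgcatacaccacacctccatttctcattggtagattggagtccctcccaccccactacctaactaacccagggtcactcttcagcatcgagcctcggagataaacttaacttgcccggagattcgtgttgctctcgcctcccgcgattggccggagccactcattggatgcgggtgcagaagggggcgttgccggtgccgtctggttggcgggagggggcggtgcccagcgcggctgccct
The remaining 45 bases of the Sesn2 window lie in the first exon of a GENCODE transcript that starts upstream of the RefSeq one. They hold a match to the antioxidant response element, which is shown in capitals within 30 bases (chr4:132510473-132510502, minus strand).
Sesn2, around the match: cgcagcgggcTGACAGAGCcgggcgagcgc

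This was the 1 match to 5 motifs searched on both strands of 11 windows of 250 bases, which belong to 9 of the 10 genes. It lies 36 to 28 bases before the RefSeq start on the strand of the gene. The motifs, chosen with earlier results of these data known, were TGACNNNGC (antioxidant response element, in 10.16% of the 32851 windows of all genes), TGATGNAAN (ATF4 composite site, 3.44%), TGACGTCA (CRE, 1.55%), GTAAACA (FOXO site, 3.17%) and CACGTG (E-box, 6.02%). A match describes these letters alone, and Eif4ebp1 has no entry.

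The libraries held 7671772 to 14511926 reads in genes, with Ctrl replicate 3 the shallowest. The 5 markers of CD8+ T cells summed to 21484 to 26446 normalized counts (reads divided by a size factor per library) in Ctrl, 21759 to 26588 with DMF and 21456 to 28119 with DMF + GSH. Within this list Cd8a was higher with DMF than in Ctrl in 3 of 3 replicate numbers (10599, 10356 and 9483 in Ctrl, 13778, 13103 and 10923 with DMF), whereas Cd3d, Cd3e and Cd3g were lower in 3 of 3 (Cd3g at 3593, 4186 and 2763 in Ctrl, 2303, 2811 and 2121 with DMF). Of 2 markers of CD4 T cells, Cd4 reached at most 4.4, whereas Zbtb7b stood at 37.4 to 86.5 in all libraries and was higher with DMF than in Ctrl in 3 of 3 numbers (54.0, 72.5 and 48.4 in Ctrl, 68.8, 86.5 and 58.1 with DMF). The NK marker Ncr1 was at 0 in 7 libraries. The 4 type 17 markers Il17a, Il17f, Il23r and Maf summed to 6022 to 8107 in Ctrl, 2358 to 4326 with DMF and 5596 to 8520 with DMF + GSH. The 4 markers of cycling cells summed to 46372 to 49302 in Ctrl, 33724 to 38251 with DMF and 43339 to 50254 with DMF + GSH. Of these, Mki67, Top2a and Ccnb1 were lower with DMF than in Ctrl in 3 of 3 replicate numbers, but Cdk1 was higher (1595, 1682 and 1669 in Ctrl, 1729, 1740 and 1777 with DMF). Of 3 NK markers, Klrk1 alone was expressed and stood at 184 to 234 in Ctrl, 374.6 to 407.5 with DMF and 194 to 321 with DMF + GSH, with Klrb1c and Ncr1 at 2.84 or less. The 4 myeloid markers in the table summed to 189 in Ctrl replicate 3 (Lyz2 119.4, Csf1r 58.3) and to 24.2 or less in every DMF and DMF + GSH library. The part of these differences in the results below was not tested, and in bulk samples fewer cells of a type and less RNA per cell cannot be told apart.

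Transcript levels were first compared between the genes per length, as normalized counts per kb of exon. In Ctrl, Ddit4 stood highest at 1157 ± 334 (SD, n = 3, here and below), followed by Sesn1 at 245 ± 53.3, Sesn3 at 195 ± 28.1, Eif4ebp1 at 178 ± 32.6 and Mtor at 128 ± 1.89. Lower levels were found for Rictor (73.5 ± 9.57 per kb), Mlst8 (54.6 ± 3.63), Sesn2 (51.5 ± 9.31) and Rptor (50.8 ± 7.16), and Prr5 came last at 6.16 ± 1.91. In this order the libraries of Sesn1 and Sesn3 overlapped, as did those of Sesn3 and Eif4ebp1, and those of Mlst8, Sesn2 and Rptor could not be ranked beyond their spread. All other neighbours were separated in the 3 Ctrl libraries. With DMF, the level of Sesn2 per kb was 100.2 ± 24.9 and that of Sesn3 95.4 ± 14.7, so that these sestrins, of which Sesn3 was the higher in Ctrl, overlapped. Eif4ebp1 moved to second place with 296 ± 27.6 per kb, above Sesn1 at 145 ± 34.8. The level of Rictor per kb (52.7 ± 6.81) overlapped that of Rptor (58.4 ± 3.67), from which it was separated in Ctrl.

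**Figure D1:**
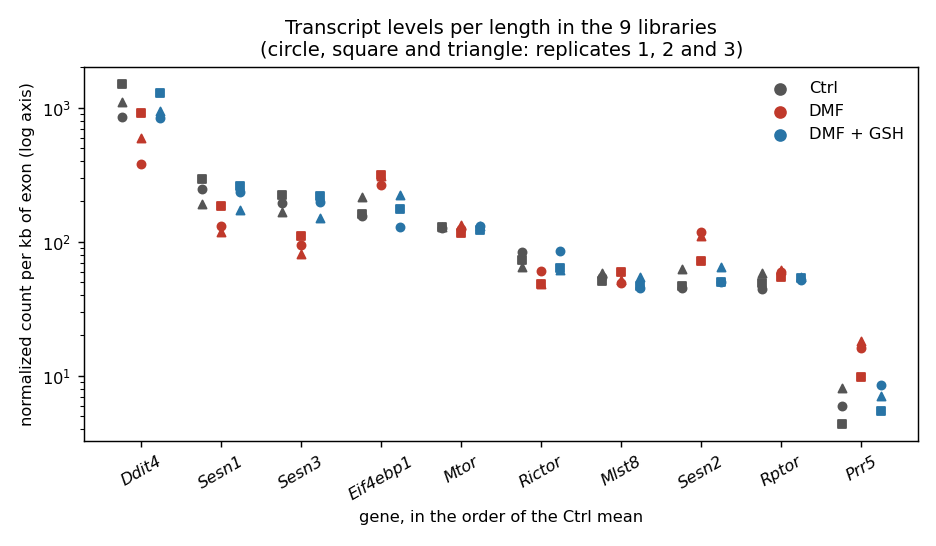
Normalized counts per kb of exon (log axis) of the 10 genes in the 3 libraries of each group, ordered by the Ctrl mean. Ddit4 is highest with a Ctrl mean of 1157 and Prr5 lowest at 6.16, and Sesn2 lies between 45.5 and 62.2 in Ctrl and between 71.9 and 119 with DMF.

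The comparison of DMF with Ctrl asks what the drug does to these transcripts. Sesn2, Eif4ebp1 and Prr5 were higher and Sesn3, Ddit4, Sesn1 and Rictor lower, whereas Mtor, Mlst8 and Rptor did not pass the test (limma, adjusted p under 0.05 over all genes tested). These 7 of 10 genes compare with 28.0% of all genes called, 14.6% higher and 13.3% lower. The median absolute log2 fold change was 0.75 over the 10 genes and 0.23 over all genes tested. By the study's stricter threshold (adjusted p under 0.01, with a log2 fold change of 0.75 or more in size), 1 of the 10, Sesn3, was called, beside 2.89% of all genes. With the replicate number as a block, 8 of the 10 were called (Rptor in addition) beside 45.0% of all genes, and 5 passed the stricter threshold, beside 6.80%. The libraries of Ctrl and DMF did not overlap for 6 of the 10 genes and for 41.3% of all genes. The count rests on single libraries. It was 0 of 10 without DMF replicate 1, where 0.948% of all genes were called. Leaving out Ctrl replicate 1 or DMF replicate 3 left 3 (beside 5.41% and 8.22% of all genes), leaving out Ctrl replicate 2 left 4 (10.0%), and 8 were called without Ctrl replicate 3 (32.7%), the library with myeloid transcripts. The losses given for single genes below are those of this fit, which takes no account of the pairing by number beyond the batch. In the fit with the replicate block the count stayed at 7 or 8 when any library was left out, beside 35.4% to 47.1% of all genes. There Rictor, Sesn1, Sesn2, Sesn3, Ddit4 and Eif4ebp1 kept their calls whichever library was left out (adjusted p up to 0.0003, limma), as did Prr5 (up to 0.025).

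**Figure D2:**
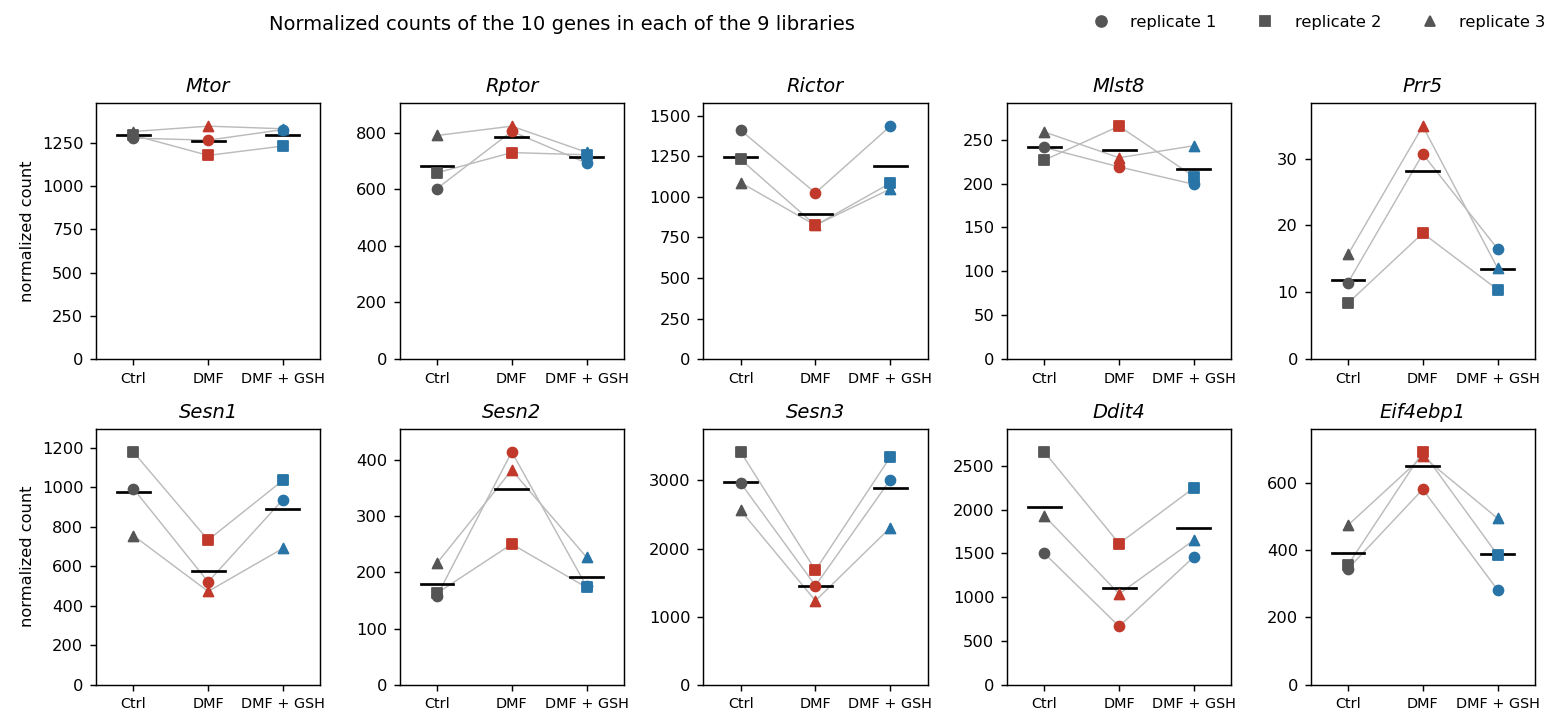
Normalized counts of the 10 genes in each of the 9 libraries, with a linear axis from 0, the group mean as a bar and lines that join libraries of the same replicate number. The libraries of Ctrl and DMF are separate for Rictor, Prr5, Eif4ebp1 and the 3 sestrins, and those of Ddit4 overlap because DMF replicate 2 (1613) lies above Ctrl replicate 1 (1501).

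Of the subunits, Mtor itself (chr4:148448611-148557683), the kinase, varied least of the 10 genes among the Ctrl libraries relative to its level. It stood at 1277, 1294 and 1315 normalized counts in Ctrl replicates 1, 2 and 3, and at 1265, 1177 and 1346 with DMF against 1326, 1231 and 1331 with DMF + GSH. The groups overlapped, and the log2 fold change of DMF against Ctrl was −0.04 (SE 0.071, adjusted p = 0.71, limma). Mlst8 (chr17:24473551-24479078), the subunit common to both complexes, ranged from 227 to 259 in Ctrl, from 219 to 265 with DMF and from 199 to 243 with DMF + GSH, likewise with overlap. Its log2 fold change with DMF was −0.03 (SE 0.11, adjusted p = 0.87, limma). Of its exon length, 22.48% is overlapped on the opposite strand by Bricd5, which was at 0 in all libraries.

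Rptor (chr11:119602905-119899576), the scaffold of mTORC1, stood at 603, 659 and 791 normalized counts in Ctrl, and 805, 730 and 824 with DMF compared with 693, 722 and 731 with DMF + GSH. Each DMF library lay above the Ctrl library of the same number, but Ctrl replicate 3 exceeded DMF replicate 2. The log2 fold change of DMF against Ctrl was 0.21 (SE 0.097) and did not pass the test (limma, adjusted p = 0.14). It passed with the replicate block (adjusted p = 0.032, limma), though not there without Ctrl replicate 1 (0.24), Ctrl replicate 2 (0.095), DMF replicate 1 (0.22) or DMF replicate 3 (0.053), and when Ctrl replicate 3 was left out (adjusted p = 0.024), and the difference in batch 1 (0.42) was larger than the mean of batch 2 (0.10).

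Rictor (chr15:6708379-6800401), the scaffold of mTORC2, fell with DMF to 71.7% of the Ctrl mean. It stood at 1412, 1232 and 1089 normalized counts in Ctrl, and 1025, 825.2 and 825.6 with DMF against 1437, 1085 and 1049 with DMF + GSH. All DMF libraries lay below all others, and within each group replicate 1 was the highest. Rictor thus had a log2 fold change of −0.48 (SE 0.071, adjusted p = 0.0049, limma), with −0.46 in batch 1 and a mean of −0.49 in batch 2. The call was lost without DMF replicate 1 (adjusted p = 0.053) and held without any other library.

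Prr5 (chr15:84669620-84703673), which encodes a subunit of mTORC2, rose but was hardly expressed. It was counted with 11, 9 and 11 reads in Ctrl, and 29, 22 and 36 with DMF compared with 15, 14 and 14 with DMF + GSH, or 11.4, 8.36 and 15.6 normalized counts in Ctrl, and 30.7, 18.8 and 34.8 with DMF against 16.5, 10.4 and 13.6 with DMF + GSH. All DMF libraries lay above all others. The log2 fold change with DMF, on the log2(normalized count + 1) scale used throughout, was 1.18 (SE 0.34, adjusted p = 0.029, limma) and understates changes of so low a gene. It was 1.35 in batch 1 and 1.095 on average in batch 2. Its call was lost without Ctrl replicate 1 (0.12), Ctrl replicate 2 (0.11), DMF replicate 1 (0.12) or DMF replicate 3 (0.13), with no minimum level (0.074), and with the 6 libraries compared alone (0.052; all adjusted p, limma), so that the rise is the least certain of the 7.

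Because a ratio within a library does not depend on its size factor, the scaffolds were also compared with each other per kb. The log2 ratio of Rptor to Rictor was −0.90, −0.57 and −0.13 in Ctrl, and −0.02, 0.15 and 0.33 with DMF compared with −0.72, −0.26 and −0.19 with DMF + GSH. Its mean was thus higher by 0.69 with DMF than in Ctrl, and no library of these groups overlapped. The log2 ratio of Prr5 to Rictor was −3.62 ± 0.57 in Ctrl, −1.885 ± 0.44 with DMF and −3.33 ± 0.22 with DMF + GSH. For either ratio, the exact permutation test of DMF against Ctrl gave p = 0.1 (two-sided, n = 3 and 3), the smallest p this design allows, and 0.15 after Benjamini-Hochberg adjustment over 12 comparisons of ratios.

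The sestrins moved apart. Sesn2 (chr4:132492032-132510501) rose to 195% of the Ctrl mean with DMF. Its normalized counts were 158, 163 and 216 in Ctrl, and 414, 250 and 381 with DMF against 175, 173 and 227 with DMF + GSH. The DMF libraries all lay above the others, DMF replicate 2 by the least. Its log2 fold change was 0.94 (SE 0.21, adjusted p = 0.012, limma), with 1.38 in batch 1 and a mean of 0.72 in batch 2. Without Ctrl replicate 1 (adjusted p = 0.074), Ctrl replicate 2 (0.051), DMF replicate 1 (0.086) or DMF replicate 3 (0.058) the call was lost.

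Sesn3 (chr9:14275067-14333101), known as a target of FOXO factors, fell to 48.9% of the Ctrl mean, the largest fall of the 10 genes. It stood at 2962, 3418 and 2560 normalized counts in Ctrl, and 1456, 1682 and 1234 with DMF compared with 3008, 3342 and 2305 with DMF + GSH. Every DMF library lay below every other library, and the log2 differences of the 3 replicate numbers, −1.02, −1.02 and −1.05, lay close together. The log2 fold change was −1.03 (SE 0.16, adjusted p = 0.0054, limma). Leaving out DMF replicate 1 ended the call (adjusted p = 0.054), and no other library did.

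Sesn1 (chr10:41809935-41908424), known as a target of p53, fell to 59.0% of the Ctrl mean. Its normalized counts were 995, 1180 and 756.5 in Ctrl, and 522, 734 and 473 with DMF against 938.5, 1036 and 691 with DMF + GSH. The DMF libraries were the lowest of their replicate number, and all lay below the Ctrl libraries, but DMF replicate 2 exceeded DMF + GSH replicate 3. Its log2 fold change was −0.76 (SE 0.21, adjusted p = 0.026, limma), with −0.93 in batch 1 and a mean of −0.68 in batch 2. Calls were lost without Ctrl replicate 1 (adjusted p = 0.11), Ctrl replicate 2 (0.10), DMF replicate 1 (0.14) or DMF replicate 3 (0.11).

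The makeup of the sestrin transcripts differed accordingly. Sesn2 made up 9.29%, 8.25% and 14.8% of the sestrin transcripts per kb in Ctrl, 34.5%, 19.6% and 35.5% with DMF, whereas it took 10.4%, 9.41% and 16.7% with DMF + GSH. The share with DMF was above that of every other library, by 19.1 percentage points over Ctrl on average (exact permutation test, two-sided p = 0.1, the smallest this design allows, adjusted 0.15 over 12, n = 3 and 3). Without division by length this difference was 10.5 points. The share of Sesn3 stood at 39.7% ± 0.23 in Ctrl, 27.9% ± 2.00 with DMF and 40.3% ± 1.39 with DMF + GSH, and that of Sesn1 at 49.5% ± 3.75, 42.2% ± 7.003 and 47.5% ± 2.58. Summed per kb, the 3 sestrins came to 492 ± 73.6 in Ctrl, 340 ± 28.8 with DMF and 467 ± 70.9 with DMF + GSH. This sum was added after the values were seen and is given without a test.

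**Figure D3:**
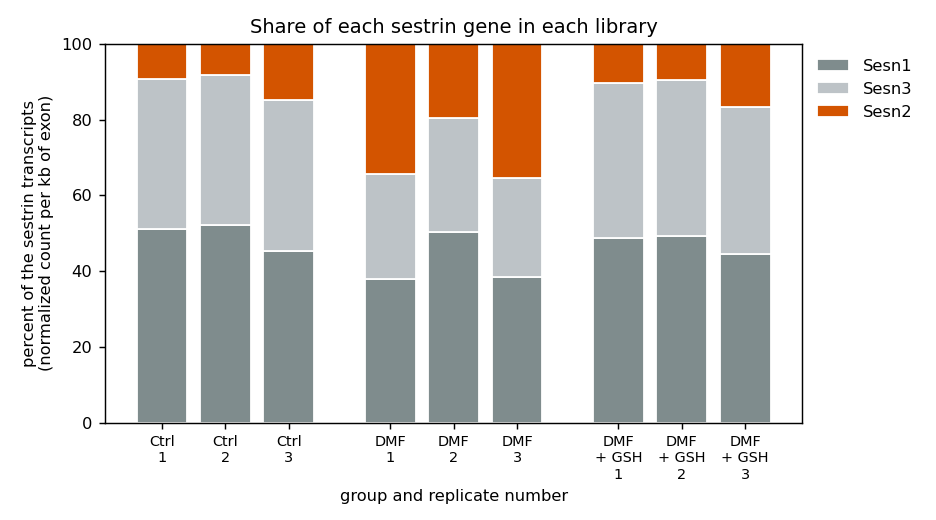
Percent of the sestrin transcripts (normalized counts per kb of exon) from Sesn1, Sesn3 and Sesn2 in each library, stacked to 100. Sesn2 takes 19.6% to 35.5% with DMF, 8.25% to 14.8% in Ctrl and 9.41% to 16.7% with DMF + GSH.

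Ddit4 (chr10:59949669-59951834), also called REDD1, encodes a stress-induced inhibitor of mTORC1 that acts through the TSC complex. It fell with DMF to 54.5% of the Ctrl mean. The normalized counts were 1501, 2659 and 1931 in Ctrl, and 668, 1613 and 1038 with DMF compared with 1462, 2249 and 1652 with DMF + GSH. The groups overlapped, since replicate 2 was the highest and replicate 1 the lowest in each, but within each number the DMF library was the lowest. On the log2 scale the change was −0.93 (SE 0.19, adjusted p = 0.010, limma), −1.17 in batch 1 and −0.81 on average in batch 2. It lost its call without Ctrl replicate 1 (adjusted p = 0.061), DMF replicate 1 (0.078) or DMF replicate 3 (0.052).

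Eif4ebp1 (chr8:27260329-27276674) encodes 4E-BP1, a repressor of cap-dependent translation that mTORC1 inactivates by phosphorylation. It rose to 166% of the Ctrl mean with DMF. In Ctrl it stood at 344, 356 and 473.5 normalized counts, with DMF at 580, 691 and 677.5 and with DMF + GSH at 282, 385 and 494. The lowest DMF library exceeded every library of the other groups. The log2 fold change was 0.74 (SE 0.14, adjusted p = 0.0074, limma), with 0.75 in batch 1 and a mean of 0.74 in batch 2. Only DMF replicate 1 ended the call when left out (adjusted p = 0.064). Set against the kinase, the log2 ratio of Eif4ebp1 to Mtor per kb was 0.46 ± 0.23 in Ctrl, 1.24 ± 0.18 with DMF and 0.42 ± 0.41 with DMF + GSH. For DMF against Ctrl the exact permutation test gave the smallest p this design allows (two-sided p = 0.1, adjusted 0.15 over 12, n = 3 and 3). The ratio uses the same Eif4ebp1 counts as the fold change and is no separate evidence.

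The comparison of DMF + GSH with DMF asks what added glutathione does in the presence of the drug. It shares the DMF libraries with the previous one, so that the values of both are set side by side and their opposite signs are no separate evidence. Sesn3, Rictor and Ddit4 were higher and Sesn2 and Eif4ebp1 lower with DMF + GSH, 5 of 10 genes beside 22.3% of all genes (9.99% higher, 12.4% lower; limma, adjusted p under 0.05). None of the 10 passed the study's stricter threshold, beside 0.543% of all genes. The libraries did not overlap for 5 of the 10 genes (Rictor, Prr5, Sesn2, Sesn3 and Eif4ebp1) and for 38.3% of all genes. The replicate block called 7, Sesn1 and Prr5 in addition, beside 41.5% of all genes, and 4 of them past the stricter threshold, beside 5.69%. Without DMF replicate 1, DMF replicate 3 or DMF + GSH replicate 1, 0 of the 10 genes were called (beside 0.129%, 0.922% and 0.0862% of all genes), and 1 without DMF + GSH replicate 2 (1.23%). With the block, 6 or 7 were called whichever library was left out, beside 30.9% to 42.0% of all genes.

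For Sesn3 the log2 fold change of DMF + GSH against DMF was 0.98 (SE 0.16, adjusted p = 0.011, limma), beside −1.03 for DMF against Ctrl. That of Eif4ebp1 was −0.78 (SE 0.14, adjusted p = 0.011), beside 0.74. Rictor showed 0.41 (SE 0.071, adjusted p = 0.011) beside −0.48. Sesn2 showed −0.84 (SE 0.21, adjusted p = 0.022), beside 0.94. For Ddit4 the value was 0.76 (SE 0.19, adjusted p = 0.024), beside −0.93. Each of these 5 moved in the same direction in 3 of 3 replicate numbers. Each call was lost without DMF replicate 1 (adjusted p = 0.095 to 0.15), DMF replicate 3 (0.058 to 0.10) or DMF + GSH replicate 1 (0.088 to 0.14), and all but that of Sesn3 without DMF + GSH replicate 2 (0.053 to 0.094). With the block, these 5 calls held whichever library was left out (adjusted p up to 0.00078, limma). Without a batch term, Rictor (adjusted p = 0.062) and Ddit4 (0.091) were not called.

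Sesn1 and Prr5 lay at the threshold. The log2 fold change of Sesn1 was 0.63 (SE 0.21, adjusted p = 0.058, limma) and passed with the replicate block (1.83e-06), with no minimum level (0.049) and without Ctrl replicate 2 (0.047), Ctrl replicate 3 (0.035), DMF replicate 2 (0.015) or DMF + GSH replicate 3 (0.021). Prr5 showed −0.98 (SE 0.34, adjusted p = 0.062, limma) and passed with the replicate block (0.014), in edgeR's quasi-likelihood test on the recovered reads (0.044) and without Ctrl replicate 3 (0.043) or DMF replicate 2 (0.039). With the block, Sesn1 passed whichever library was left out, but Prr5 did not pass without DMF replicate 1 (adjusted p = 0.055), DMF replicate 3 (0.061) or DMF + GSH replicate 3 (0.091). The adjusted p of Mtor, Mlst8 and Rptor ranged from 0.34 to 0.73 in this comparison. Their log2 fold changes were 0.04, −0.135 and −0.13.

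The comparison of DMF + GSH with Ctrl asks how far cultures with both agents stand from those with neither. None of the 10 genes was called, nor was any other gene (0% by either threshold; limma), and 0 of the 10 had an unadjusted p under 0.05, beside 222 of all genes tested. The quasi-likelihood test of edgeR also called 0 genes, with 213 at an unadjusted p under 0.05. With the replicate block, 599 of all genes and 0 of the 10 had an unadjusted p under 0.05 (limma). The replicate block called 4 genes, 0.0345% of those tested (0.00862% past the stricter threshold) and none of the 10, and libraries without overlap were found for 0 of the 10 and for 4.47% of all genes. The log2 fold changes lay between −0.17 (Ddit4, SE 0.19) and 0.20 (Prr5, SE 0.34), with a median absolute value of 0.0875 beside 0.0661 over all genes. For Sesn2 the difference was 0.10 (SE 0.21), for Eif4ebp1 −0.04 (SE 0.14) and for Sesn3 −0.05 (SE 0.16), sizes that these libraries could not tell from 0, which does not show that the levels are equal. Within replicate numbers, Ddit4 (−0.04, −0.24 and −0.225), Mlst8 (−0.275, −0.12 and −0.09) and Sesn1 were lower in 3 of 3, and Sesn2 was higher. The SE of Ddit4 was 0.084 with the replicate block. The share of all genes that moved alike in 3 of 3 was not counted.

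**Figure D4:**
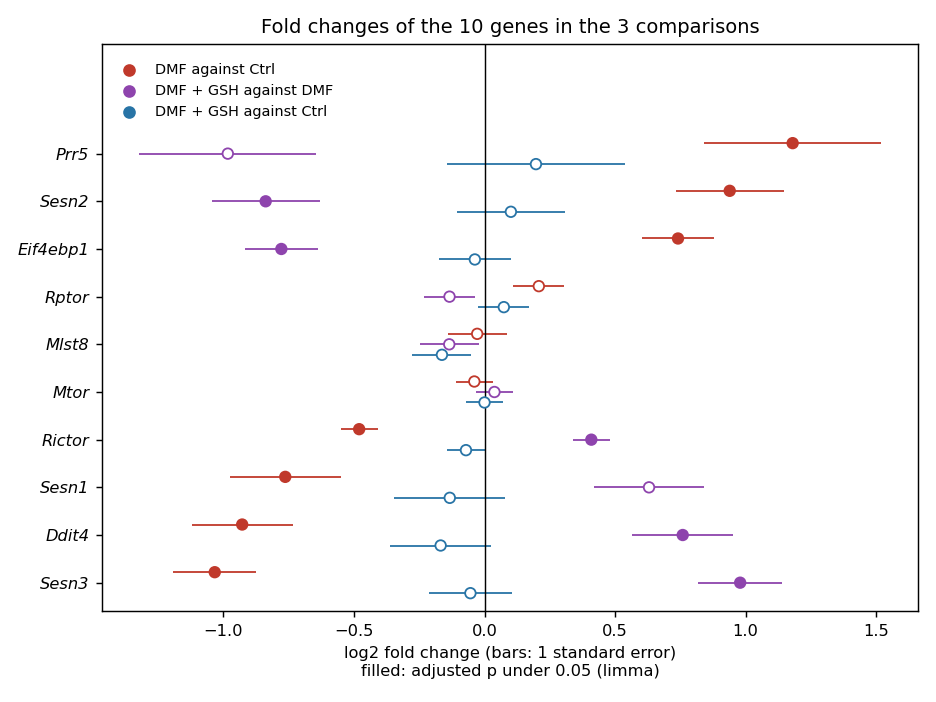
Log2 fold changes of the 10 genes in the 3 comparisons, with 1 standard error as the bar and filled points for an adjusted p under 0.05 (limma). With DMF against Ctrl the points run from −1.03 (Sesn3) to 1.18 (Prr5), and with DMF + GSH against Ctrl all lie between −0.17 and 0.20.

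The wider pathway was described with a list of 63 further genes of mTOR signalling, of which 62 were found in the table and 58 tested. With DMF, 6 were higher and 6 lower (limma, adjusted p under 0.05), 12 of 58 beside 28.0% of all genes, and the median log2 fold change was 0.0047. With the replicate block the count was 20, beside 45.0% of all genes. Leaving out Ctrl replicate 1 or DMF replicate 1 gave 0 of 58 (beside 5.41% and 0.948% of all genes), Ctrl replicate 2 or DMF replicate 3 gave 3 (10.0% and 8.22%), DMF + GSH replicate 1 gave 8 (23.6%) and DMF replicate 2 gave 18 (31.4%). With DMF + GSH against DMF, 4 were higher and 6 lower, 10 of 58 beside 22.3% of all genes, and 22 with the block, beside 41.5%. None was called without DMF replicate 1, DMF replicate 3, DMF + GSH replicate 1 or DMF + GSH replicate 2, beside 0.0862% to 1.23% of all genes. No gene of the list was called with DMF + GSH against Ctrl.

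By role, the amino acid sensors other than sestrins had the lowest median, with 3 of 4 lower and 0 higher with DMF. Counts by role rest on few genes and stand beside 13.3% of all genes lower and 14.6% higher. Castor1, an arginine sensor, fell by 1.20 on the log2 scale (SE 0.25, adjusted p = 0.010, limma), from 172.5, 166 and 83.9 normalized counts in Ctrl to 63.5, 57.4 and 53.2 with DMF, beside 125.4, 125.5 and 82.65 with DMF + GSH. Slc38a9, a lysosomal arginine transporter that signals to the Rag GTPases, fell by 0.70 (SE 0.17, adjusted p = 0.015), from 333, 338 and 263 to 180, 234 and 164. The third was Castor2, with 541 ± 22.3 in Ctrl and 403 ± 20.05 with DMF. Of 12 genes for Rag GTPases, Ragulator and folliculin, 1 was called. Rragd, a Rag GTPase, rose by 1.09 (SE 0.25, adjusted p = 0.013) from 184, 181 and 256 to 440, 321 and 585.5, beside 172, 155 and 262.5 with DMF + GSH. None of the 5 tested genes of TSC and Rheb and none of the 6 of AMPK and Lkb1 was called, with log2 fold changes from −0.05 to 0.185 and from −0.10 to 0.01. Of the other subunits of the complexes (Mapkap1, Deptor, Akt1s1 and Prr5l), 0 of 4 were called.

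Among 13 tested targets, 3 were higher and 1 lower with DMF, beside the same shares of all genes. Larp1, which controls the translation of mRNAs for ribosomal proteins, rose by 0.58 (SE 0.12, adjusted p = 0.0090, limma), from 5817, 5432 and 7106 normalized counts in Ctrl to 9115, 8316 and 9910 with DMF. Pdcd4, an inhibitor of translation initiation that is degraded after phosphorylation by S6 kinase, fell by 0.73 (SE 0.19, adjusted p = 0.019), from 2082, 2134 and 1375 to 1189, 1231 and 907. Ctrl replicate 3 was the lowest Ctrl library of Castor1, Castor2, Slc38a9 and Pdcd4. Rps6, a ribosomal protein phosphorylated by S6 kinase, rose by 0.91 (SE 0.29, adjusted p = 0.041), but it stood at 36.4 to 105.5 normalized counts in the 9 libraries and has many near-identical pseudogenes, so that its level is uncertain. The third rise was that of Eif4e, the cap-binding protein that 4E-BP1 holds back, with 811 ± 122 in Ctrl, 1064 ± 68.55 with DMF and 819 ± 110 with DMF + GSH. Castor2 and Eif4e were named after their values were seen.

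**Figure D5:**
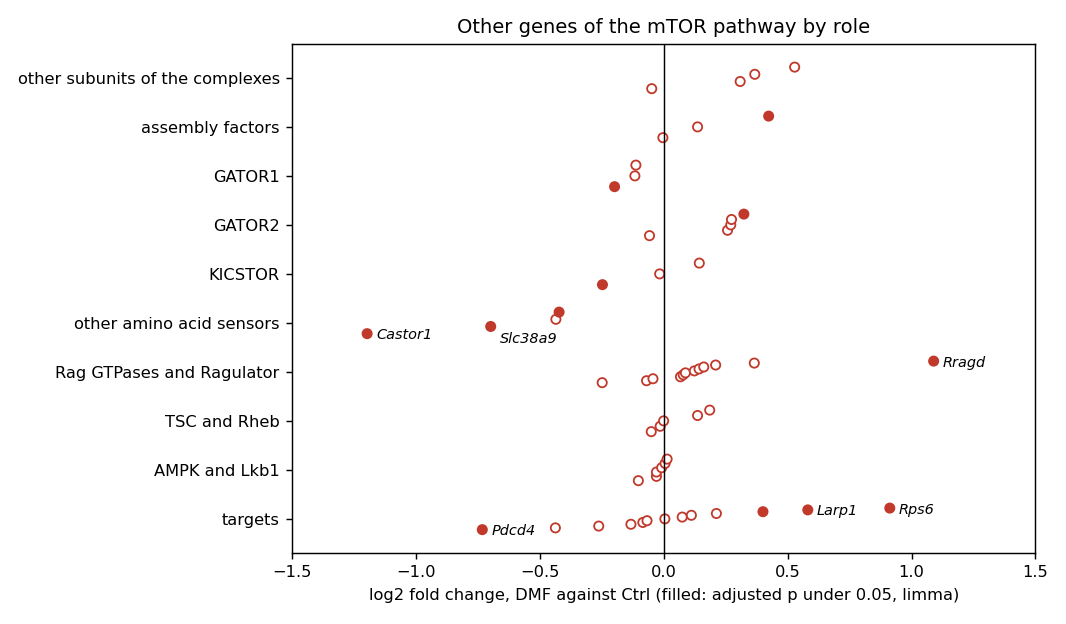
Log2 fold change of DMF against Ctrl for the 58 tested genes of the wider pathway list, by role, with filled points for an adjusted p under 0.05 (limma). Castor1 (−1.20) and Rragd (1.09) mark the ends, and all genes of TSC and Rheb and of AMPK and Lkb1 lie between −0.10 and 0.19.

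Finally, the genes whose pattern over the 9 libraries was most like that of Sesn2 and Prr5 were sought by Pearson's r of log2 values after subtraction of the mean of each replicate number. The 5 closest to Sesn2 were Pphln1 (r = 0.998), Ptprj (0.997), Naf1 (0.996), Tm9sf4 (0.995) and Simc1 (0.995). Their log2 fold changes with DMF ran from 0.35 (Pphln1) to 0.98 (Ptprj). Ptprj, a receptor-type tyrosine phosphatase, had means of 685 normalized counts in Ctrl, 1390 with DMF and 734 with DMF + GSH. Closest to Prr5 were Acsl5 (0.997), Psma4 (0.991), Arcn1 (0.991), Eid2 (0.991) and Nus1 (0.989). Their log2 fold changes with DMF ran from 0.15 (Acsl5) to 0.58 (Eid2), beside 1.18 for Prr5, and Acsl5 (adjusted p = 0.081) and Arcn1 (0.11) were not called (limma). These values describe 9 libraries that share group, batch and scaling, and they were taken as the highest among 11599 genes.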

How the data were processed

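The authors aligned single reads of 50 bp to GRCm38 with STAR (2.4.0b in the submitters' processing notes), assigned them to genes by featureCounts and used DESeq2 with a term for the preparation batch. How strand and reads shared between genes were treated is not stated. The deposited values are normalized counts, a signal that is the read count divided by a size factor per library. The deposited table also holds the authors' mean signal per gene and their comparison of Ctrl with DMF (log2 fold change, test statistic score, p-value and adjusted p), which were not used. Divided by the smallest step of their library, 100% of the nonzero values came out whole (tolerance 0.01 reads), which gave back the reads. Ctrl replicate 3 had 7671772 reads, so that low genes are least precise there.

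The main test was limma-trend (limma 3.58.1, R 4.3.3) on log2(normalized count + 1) of genes with a mean of at least 10, with group and batch as terms and all 9 libraries in 1 fit, and Benjamini-Hochberg adjustment over 11599 genes. A quasi-likelihood test had been foreseen for raw counts only. It was run with edgeR 4.0.16 on the recovered reads as an alternative, where it called 3276 genes in DMF against Ctrl and 2649 in DMF + GSH against DMF. In simulated data, 200 of 11599 genes were changed between Ctrl and DMF. The test called 74.5% of changes of 0.75 and 100% of changes of 1.5 (log2), with 5 and 7 false calls. The simulated libraries were drawn independently, without batch or replicate effects, and only better expressed genes were changed. These figures therefore do not give the recovery or the false calls in the real libraries. The replicate numbers in the labels paired the samples: after subtraction of group means, libraries of the same number correlated with 0.447 to 0.578 (9 pairs) and others with −0.471 to −0.0621 (18 pairs).

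Per-kb values use the union of exons in GENCODE vM21, where 40254 gene identifiers were found. Ratios were compared by exact permutation (SciPy 1.17.1), with 20 splits of 3 against 3. Castor1, Castor2 and Bmt2 were matched by gene identifier to older symbols, and Kics2 was not matched. The 10 genes, the lists and the motifs were chosen with earlier results of these data known. The genes named are the 10, up to 3 largest rises and falls of the pathway list among genes called with DMF that moved alike in all 3 replicate numbers, the 5 closest in pattern to Sesn2 and to Prr5, and cell type markers. Alternatives were other pseudocounts (0.5, 4), no minimum or 50, quantile normalization or TMM, the replicate block, a fit with no batch term, the 6 libraries compared alone, robust eBayes, edgeR, ratios without division by length, and each library left out, with and without the block. Tables and figures were made with Python 3.11.15, pandas 2.3.3 and Matplotlib 3.10.9.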

Additional observations from a re-analysis of the deposited data

How the results depend on the processing

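Each library was left out in fits with the batch term and with the replicate block. DMF against Ctrl then called 110 to 5466 of all genes, 0 to 8 of the 10 genes and 0 to 20 of the pathway list. Past the stricter threshold were 0 to 6 of the 10, beside 2 to 865 of all genes (0.0172% to 7.46%). DMF + GSH against DMF called 10 to 4873, 0 to 7 and 0 to 23. Past that threshold were 0 to 4 of the 10, beside 0 to 728 of all genes (0% to 6.28%). DMF + GSH against Ctrl called 0 to 16 of all genes. In the first 2 comparisons the lowest counts came in fits with the batch term. With the replicate block and all libraries, DMF against Ctrl called 5224 of all genes and 20 of the pathway list. Past the stricter threshold were 5 of the 10, beside 6.80% of all genes. DMF + GSH against DMF called 4814 and 22 with the block, with 4 of the 10 past that threshold, beside 5.69%. DMF + GSH against Ctrl called 4 genes. The block changed no call of the 10 genes other than those of Rptor, Sesn1 and Prr5 given above. Past the stricter threshold stood 3 of the 10 with no minimum (beside 1.69% of all genes), 2 with robust eBayes (2.98%) and 0 with 6 libraries (0.371%) in DMF against Ctrl, and 2 with no minimum (1.03%) and 1 with robust eBayes (0.854%) in DMF + GSH against DMF, where 3 of the 10 were called at all without a batch term (18.5%). The cause was not tested. Signs turned only for changes that were not called. In DMF + GSH against Ctrl, Mtor stood at 0.0043 with TMM, 0.0051 with quantile normalization and 0.0049 with edgeR. Without 1 library, DMF against Ctrl ranged from −0.146 to 0.0624 for Mlst8 and from −0.092 to 0.0136 for Mtor, and DMF + GSH against DMF from −0.014 to 0.0916 for Mtor. DMF + GSH against Ctrl ranged from −0.181 to 0.0904 for Eif4ebp1, −0.0236 to 0.0419 for Mtor, −0.0101 to 0.176 for Rptor, −0.319 to 0.0499 for Sesn1, −0.0368 to 0.257 for Sesn2 and −0.187 to 0.105 for Sesn3, although within replicate numbers Sesn2 was higher and Sesn1 lower in 3 of 3. Under a minimum of 50, Prr5 was not tested. Without division by length, the Sesn2 share differed by 10.5 percentage points in DMF against Ctrl and by −9.95 in DMF + GSH against DMF. Without 1 library, it differed by 16.3 to 24.2 points in DMF against Ctrl, and the log2 ratio of Prr5 to Rictor by 1.5 to 2.05. In DMF + GSH against Ctrl, the difference in that share ran from −0.87 to 3.41 points between unpaired means, whereas within replicate numbers it was 1.13, 1.16 and 1.91.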
